A study of Homo sapiens with 5 samples.

Results

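The human miRNA names numbered miR-6721 to miR-6895 were followed across attached and detached MCF10A cells, an immortalized, non-tumorigenic mammary epithelial line. A name on either arm of its hairpin became a member when its raw counts summed to 5 or more over the 5 libraries, which gave 210 members of the 344 names in this range and of 2565 human miRNA names in all. The members lie on 142 hairpin names, of which 68 have both arms as members. Since the summed count chose them, their abundance is a description only. All libraries came from the same line, grown in serum-containing medium with epidermal growth factor, insulin, cholera toxin and hydrocortisone, with no genetic change named in the labels. In the attached group (3 libraries) the cells sat on uncoated plates, and in the detached group (2 libraries) a 2% poly-HEMA coating kept them from adhering. The time label gives 0 h for attached and 24 h for detached libraries, whereas the series' design text states 24 h for both, so culture time and attachment cannot be told apart. Small RNAs of 18 to 24 nt were selected from 50 µg of total RNA before sequencing. No label says that replicates were separate cultures, so each p-value measures only the spread between these libraries.

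Most miRNAs are cut from a long primary transcript by the nuclear enzyme Drosha and then by Dicer. A mirtron is a short hairpin intron that skips Drosha: splicing and debranching of the lariat release the hairpin, which Dicer then trims. In a tailed mirtron only the 3′ or the 5′ end of the hairpin coincides with a splice site, and the remaining stretch of the intron has to be removed. Since introns start with GU and end in a pyrimidine-rich tract followed by AG, the 3p arm of a mirtron carries the end of an intron, and its 5p arm pairs with that tract and is rich in G.

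RefSeq (GRCh38.p14) gave a mature sequence for 185 of the 210 members. The following are shown because they are among the most abundant members or have the smallest p-values in each direction; capitals mark the seed, bases 2 to 8, with which a miRNA chiefly recognizes its targets.
miR-6724-5p: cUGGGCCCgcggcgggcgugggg
miR-6803-3p: uCCCUCGCcuucucacccucag
miR-6799-3p: uGCCCUGCaugguguccccacag
miR-6787-3p: uCUCAGCUgcugcccucuccag
miR-6820-3p: uGUGACUUcuccccugccacag
miR-6751-3p: aCUGAGCCucucucucuccag
miR-6887-3p: uCCCCUCCacuuuccuccuag
miR-6791-3p: uGCCUCCUuggucuccggcag
miR-6775-3p: aGGCCCUGuccucugccccag
miR-6793-5p: uGUGGGUUcuggguugggguga
miR-6881-3p: aUCCUCUUucguccuucccacu
Every 3p sequence in this list except that of miR-6881-3p ends in AG, and most of the letters in each 3p sequence are C or U. The seeds all differ from each other.

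The 185 sequences held 176 seeds, and 9 of these were shared by a pair of hairpin names. Among them, UGGGCCC stands in miR-6724-5p and miR-6773-5p, UGGGGGU in miR-6751-5p and miR-6803-5p, and GCCUCCU in miR-6791-3p and miR-6829-3p. No 2 of the 185 matched members had an identical mature sequence.

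The hairpins show how the arms sit against the intron. In the following, capitals mark the named mature arms, the 5p arm first. MIR6765 is shown as a hairpin that fills its intron, and the others as hairpins at the 3′ end of a longer intron.
MIR6765: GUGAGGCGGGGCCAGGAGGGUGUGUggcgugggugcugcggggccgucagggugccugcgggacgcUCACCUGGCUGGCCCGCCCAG
MIR6803: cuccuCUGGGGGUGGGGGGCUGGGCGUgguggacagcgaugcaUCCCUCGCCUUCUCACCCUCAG
MIR6751: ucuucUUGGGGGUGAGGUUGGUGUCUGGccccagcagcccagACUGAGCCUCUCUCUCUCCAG
MIR6887: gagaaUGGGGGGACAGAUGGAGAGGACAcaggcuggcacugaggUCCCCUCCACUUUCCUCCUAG
MIR6793: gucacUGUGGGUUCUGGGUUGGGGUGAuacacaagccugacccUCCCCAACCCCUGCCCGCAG
MIR6765 (chr14:105150778-105150864, minus strand) is the whole of an 87-base intron of JAG2, a Notch ligand gene, and runs from GU to AG. MIR6803 (chr19:55245186-55245250, minus strand) takes the last 65 bases of a 79-base intron of PPP6R1, which encodes a phosphatase regulatory subunit. MIR6751 (chr11:65129916-65129978, minus strand) takes the last 63 bases of an 86-base intron of SYVN1, whose product is a ubiquitin ligase of the endoplasmic reticulum. MIR6887 (chr19:35122700-35122764, plus strand) ends a 1519-base intron of FXYD3, which encodes a regulator of the sodium pump. MIR6793 (chr19:10828973-10829035, plus strand) ends a 3814-base intron of DNM2, the gene of the membrane-cutting GTPase dynamin.

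The name of the group as rich in mirtrons was set beside GENCODE 29 gene models on the same assembly, as a description of the annotated hairpins. Of the 131 member hairpins with a position in RefSeq, 117 (89.3%) had their 3′ end within 10 bases of the 3′ end of a longer intron on the same strand. Another 8 (6.11%) filled an intron, with both ends within 10 bases of its ends. Among 1416 other human hairpins, the same shares were 3.88% (55 hairpins) and 1.20% (17 hairpins). By name, 82.3% of 113 placed names of the range below 5 counts lay at such a 3′ end and 11.5% filled an intron. The layout thus goes with the number range and was not particular to the members. Most hairpins outside the range lay inside an intron away from its ends (48.0%) or outside annotated genes (32.2%), against 1 member hairpin in each of these classes. The placed member hairpins are therefore mostly of the tailed layout, and the full-intron layout is a small share of them. The 25 members without a RefSeq sequence, which held 1573 of the members' 6468 counts, were not placed. Among these are miR-6723-5p, miR-6842-3p and miR-6747-3p, which are abundant members.

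**Figure D1:**
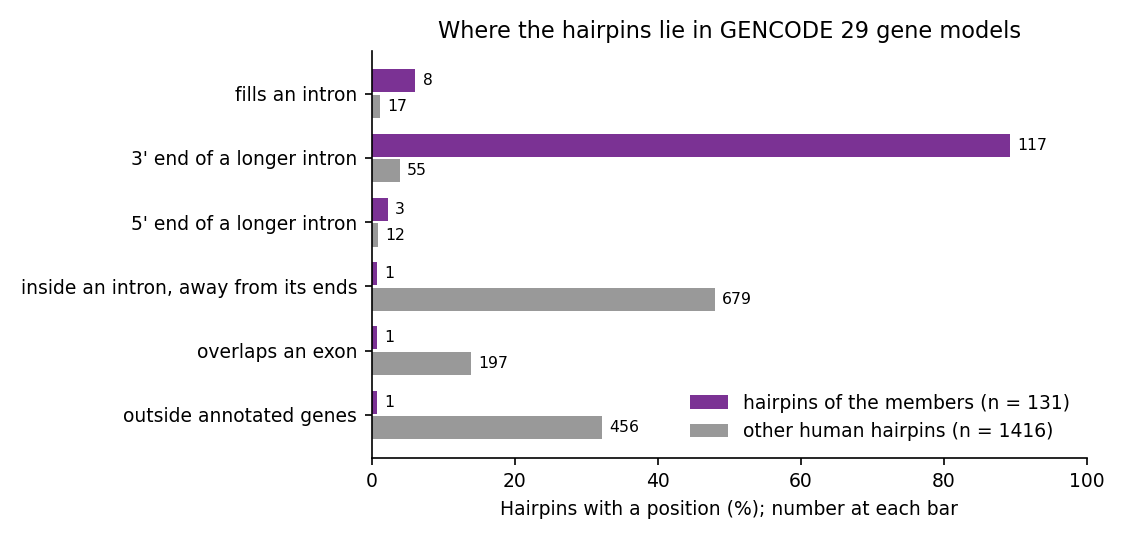
Share of hairpins (x axis, %) in each position class (y axis) for the 131 hairpins of the members (purple) and 1416 other human hairpins (grey), with the number of hairpins beside each bar. The bar for the 3′ end of a longer intron holds 117 member hairpins, and the other 5 classes hold 14 between them.

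The fit to the splice site was close. Of the 117 hairpins at a 3′ intron end, 114 ended on the last base of the intron. They lay in 114 host genes, and the host of 115 of the 117 hairpins was protein-coding. Their introns had a median length of 342 bases, and 31 introns were shorter than 150 bases. The stretch between the intron start and the hairpin ran from 13 to 9885 bases, with a median of 269. Of the 100 3p members on these hairpins, 84 ended on the last base of the intron and 93 within 2 bases of it.

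The 8 hairpins that fill an intron sit in introns of 78 to 117 bases (median 93) of JAG2, HGS, PLEKHJ1, TRIM28, SMC1A, TRMT2A, MED25 and ZYX. These genes serve unrelated processes: HGS sorts endosomal cargo, TRIM28 is a transcriptional corepressor and SMC1A is a cohesin subunit. Their 10 member arms summed to 234 counts over the 5 libraries. Among them miR-6765-3p was highest with 56 counts, while its 5p partner stayed below the threshold with 2.

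Base composition differed by arm as the letters above show. The 74 matched 5p members had a median G content of 50.0%, compared with 27.3% in 623 other human 5p names. In the 110 matched 3p members, C and U made up a median of 72.7% of bases, compared with 54.5% in 641 other 3p names. The dinucleotide AG closed 88 of the 110 3p members (80.0%) and 67 of the 641 other 3p names (10.5%). Among 3p names of the same number range that stayed below 5 counts, 28 of 40 (70.0%) ended in AG. Median GC content was 61.9% over members and 50.0% over other human names, and miR-6724-5p had the highest value among members, 91.3%.

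**Figure D2:**
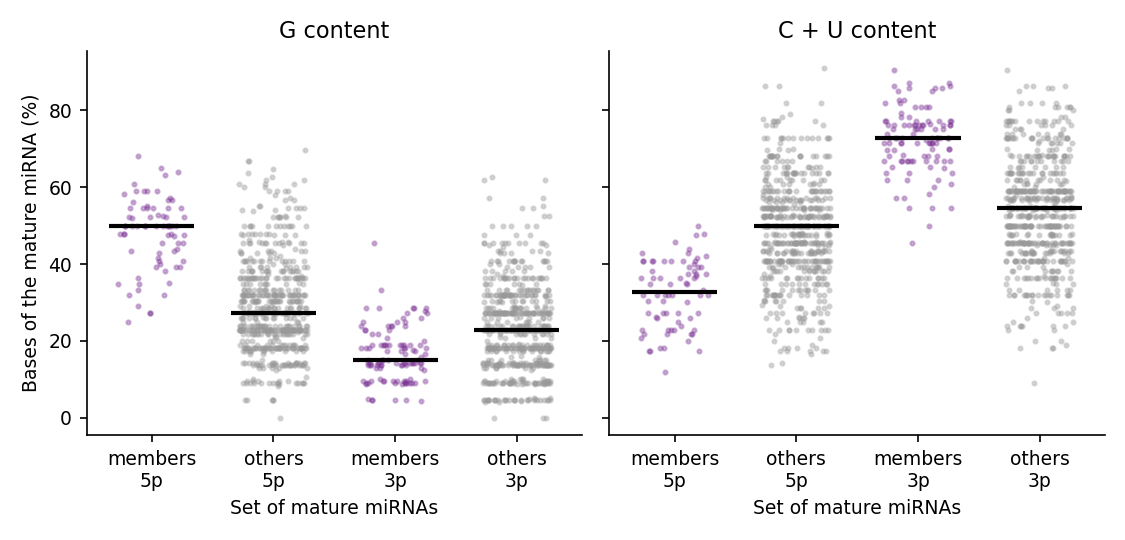
G content (left) and C plus U content (right), in % of bases, of each matched mature miRNA by arm, for members (purple) and human names outside the range (grey); horizontal bars are medians. The 5p members centre on 50.0% G and the 3p members on 72.7% C plus U, each above the other names of the same arm (27.3% and 54.5%).

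The members were rare in every library. Human miRNA counts per library ran from 8805009 to 15793173, so 1 count was worth 0.0633 to 0.114 CPM (counts per 1000000 human miRNA counts), and a floor of 3 counts stood for 0.190 to 0.341 CPM, for counting error only. Attached replicate 2 stood apart. Its rank correlation with the other 4 libraries over 667 human names was 0.806 to 0.849, compared with 0.923 to 0.962 among those 4. Mammary epithelial markers (5 of 5 detected, miR-205-5p and miR-200 family members among them) summed to 41717 to 97405 CPM across attached libraries and 86665 to 120905 CPM across detached ones. Fibroblast markers (4 of 4 detected) summed to 3.78 to 11.7 CPM across attached libraries and 17.5 to 57.4 CPM across detached ones, and blood cell markers (6 of 6 detected) to 5.79 to 19.0 and 21.5 to 22.2 CPM. Muscle markers, with miR-133a-3p at 0, and the liver marker reached at most 11.7 and 0.775 CPM. The part of these other lists in the results below was not tested.

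The members' counts summed to 997, 868 and 1319 in attached replicates 1, 2 and 3 and to 1805 and 1479 in detached replicates 1 and 2. Scaled to the human total, this was 82.0, 98.6 and 128 CPM across attached libraries and 114 and 140 CPM across detached ones, or at most 0.0140% of human miRNA counts. The group means were 103 ± 23.2 CPM (SD, n = 3) and 127 ± 18.5 CPM (SD, n = 2), and the groups overlapped. Without attached replicate 2 the attached mean was 105 ± 32.4 CPM (SD, n = 2). With TMM scaling, which sets libraries level over most miRNAs, the means were 110 ± 22.5 and 114 ± 1.70 CPM. In such bulk libraries, fewer cells that make a miRNA and less of it per cell cannot be told apart.

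The total was spread over many names. A member had a median of 15 counts over the 5 libraries. There were 71 members with 5 to 10 counts, 27 with 50 or more and 10 with 100 or more. The 10 highest together held 2414 of 6468 counts. Just inside the threshold, 19 names had a total of 5, such as miR-6797-5p with 1 count in each library. Just outside it, 23 names had a total of 4, such as miR-6748-5p, with 0 in attached replicate 2 and 1 in each of the others. A further 38 names of the range had no counts.

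Detection followed depth in part. Members with at least 1 count numbered 182, 143 and 188 in attached replicates 1 to 3 and 195 and 197 in detached replicates 1 and 2. At the common depth of 8805009 human counts, 166, 143, 182, 171 and 190 members would be expected in the same order. Detached libraries no longer lay above all attached ones at that depth, and attached replicate 2 was lowest on both scales. In all, 103 members were seen in all 5 libraries, 76 in 4, 25 in 3, 5 in 2 and 1 in a lone library.

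Members without a count in a group were few and low, and no share over all human names was counted beside them. Each of them met the 5-count rule of membership through the other group alone, so their counts are a description only. miR-6795-3p, from an intron of the Notch receptor gene NOTCH3, had 0 counts in all attached libraries and 9 and 4 in the detached pair. miR-6855-5p, from an intron of USP20, a deubiquitinase gene, had 0 in all attached libraries and 5 and 4 in the detached pair. The only member with 0 counts in both detached libraries was miR-6759-5p, from an intron of the cell-cycle kinase gene CDK4, whose 5 counts all came from attached replicate 2. A count of 0 allows up to 3 counts per library, which is 0.247 to 0.341 CPM in the attached libraries. The detached levels were 0.570 and 0.380 CPM for miR-6795-3p and 0.317 and 0.380 CPM for miR-6855-5p, so the latter reached no further than that range in detached replicate 1.

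The most abundant member was miR-6723-5p, at 8.31, 8.52 and 6.68 CPM across attached libraries and 11.3 and 15.8 CPM across detached ones. The detached libraries were above all attached ones, but on the TMM scale attached replicate 2 (11.4) reached detached replicate 1 (11.3). Its log2 fold change, detached over attached, was 0.47 (SE 0.60) with an adjusted p of 0.883 in edgeR's quasi-likelihood test. The difference was smaller than its SE. No RefSeq sequence was matched to this name, so its position was not read.

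Next was miR-6724-5p, at 6.91, 11.0 and 12.1 CPM across attached libraries and 8.55 and 9.97 CPM across detached ones, with overlapping groups. The log2 fold change was −0.39 (SE 0.62, edgeR adjusted p 0.884). This member is not intronic. RefSeq lists 4 MIR6724 copies on chromosome 21, of which MIR6724-1 and MIR6724-3 lie 581 bases and MIR6724-4 lies 600 bases before a 45S ribosomal RNA gene. The counts are given by name, and the copies cannot be told apart.

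Of the other 8 members with the highest mean level, all were 3p arms. miR-6842-3p was at 2.22, 4.66 and 7.27 CPM across attached libraries and 4.75 and 3.32 CPM across detached ones. miR-6747-3p was at 2.47, 2.39 and 4.94 CPM and at 3.23 and 4.65 CPM, and miR-6726-3p, from an intron of the Arf GTPase-activating gene ACAP3, at 1.56, 2.39 and 3.10 CPM and at 2.60 and 3.13 CPM. miR-6732-3p, from an intron of the ribonuclease gene ZC3H12A, was at 1.81, 1.36 and 2.23 CPM and at 1.58 and 1.61 CPM. The groups overlapped for each of these 4. Their log2 fold changes lay between −0.42 and 0.04, each smaller than its SE. Neighbours among these 4 in the order of level had overlapping ranges over the libraries.

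The remaining members of that top 10 stood apart by group on the CPM scale. miR-6803-3p was at 0.494, 0.568 and 4.55 CPM across attached libraries and 6.21 and 4.65 CPM across detached ones. Attached replicate 3 was close to the detached libraries, and on the TMM scale (3.99) it passed detached replicate 2 (3.73). miR-6799-3p, from an intron of the clathrin adaptor gene AP2A1, was at 1.15, 0 and 2.71 CPM across attached libraries and 3.67 and 4.65 CPM across detached ones. miR-6787-3p, from an intron of the lactate transporter gene SLC16A3, was at 1.15, 1.02 and 1.26 CPM across attached libraries and 2.22 and 3.13 CPM across detached ones. The log2 fold changes of these 3 were 1.47 (SE 0.90), 1.57 (SE 1.02) and 0.95 (SE 0.59), with edgeR adjusted p of 0.735, 0.765 and 0.747. miR-6820-3p, from an intron of the RNA polymerase subunit gene POLR2F, was the lone member of the top 10 with both detached libraries below the attached ones in CPM (with TMM scaling miR-6732-3p was too), at 2.06, 2.61 and 2.71 CPM across attached libraries and 1.39 and 1.99 CPM across detached ones. Its log2 fold change was −0.83 (SE 0.62, edgeR adjusted p 0.773).

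**Figure D3:**
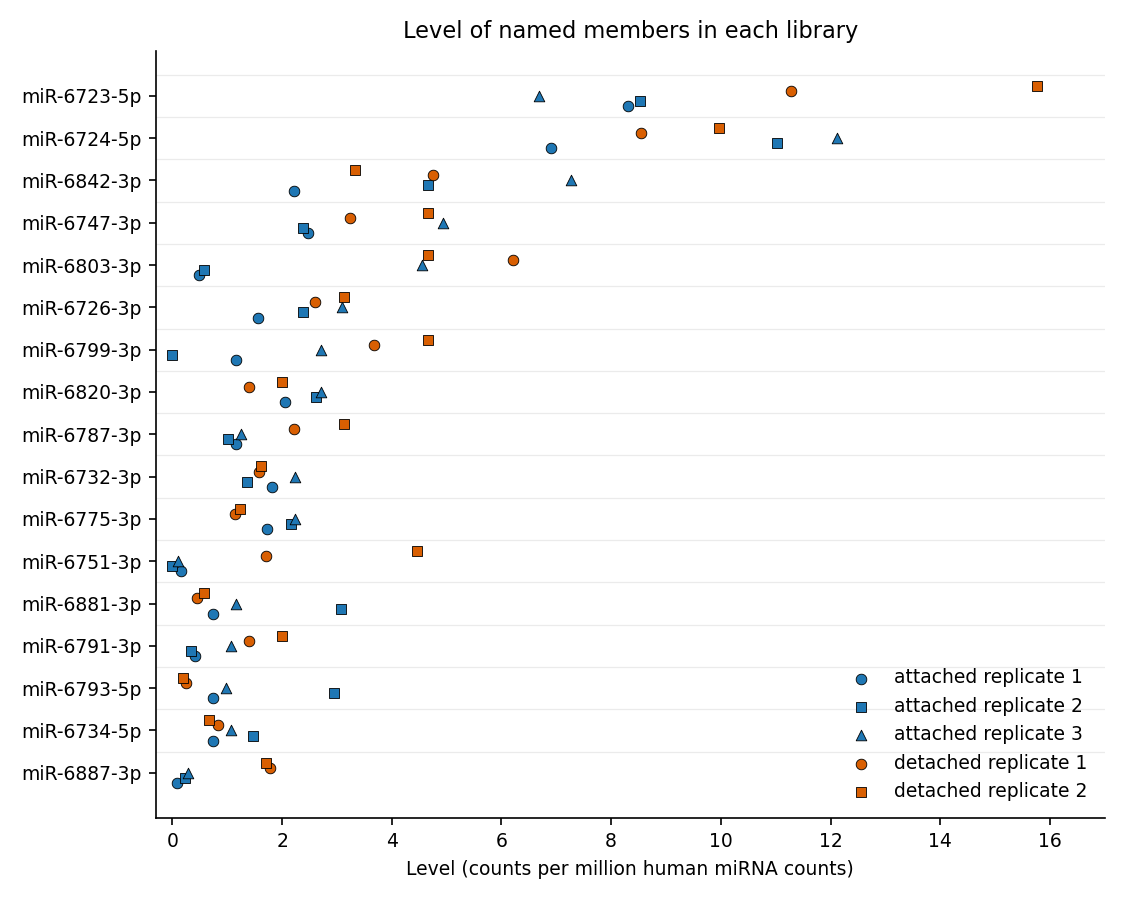
Level in CPM (x axis, linear) of named members (y axis, ordered by mean level) in each library; blue symbols are the 3 attached and orange symbols the 2 detached libraries. Both orange symbols of miR-6751-3p and miR-6887-3p lie to the right of all blue ones, and both of miR-6793-5p and miR-6881-3p lie to the left, where attached replicate 2 is the farthest blue symbol.

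Of the 210 members, 32 passed the low-count filter of the edgeR test and none was called higher or lower in detached cells at an adjusted p under 0.05. Over all 697 human names tested, 0% were called in either direction. At an unadjusted p under 0.05, edgeR had 2 members higher, where the share over all names was 4.73%, and 1 lower, where it was 2.3%. With limma-voom 0 members were called, and with DESeq2 1 was called higher, where 1.24% of all names with an adjusted p were. Of the 32, 21 had a positive log2 fold change (65.6%, median 0.12), compared with 48.8% of all names tested (median −0.04). With RLE factors in place of TMM factors the split was 53.1% among members and 44.8% over all names. A member that is high only in the detached group can pass the filter through that group, and without the filter 105 members had a positive and 105 a negative value.

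The smallest p among members was that of miR-6751-3p. It had 2, 0 and 1 counts in attached replicates 1 to 3 and 27 and 47 counts in detached replicates 1 and 2, or 0.165, 0 and 0.0969 CPM against 1.71 and 4.46 CPM. The attached libraries were at or below the level of 3 counts, and both detached libraries were clear of it. The low-count filter was passed only through the detached group, so the p of miR-6751-3p after that filter carries this selection. Per human miRNA count the detached sum of 74 was 29.3 times the attached sum of 3, with an exact 95% counting interval of 9.65 to 145. The edgeR log2 fold change was 4.62 (SE 0.89, adjusted p 0.146), so it was not called. DESeq2 called it (adjusted p 0.0279). edgeR without the low-count filter called it as well (adjusted p 0.00146), the lone member called there, where 0.73% of all names were called higher and 0.261% lower. So did edgeR without attached replicate 2 (log2 fold change 4.24, SE 0.76, adjusted p 0.00339). When each of the other libraries was left out, edgeR did not call it: the log2 fold change was 5.38 (adjusted p 0.278) without attached replicate 1, 4.50 (0.446) without attached replicate 3, 5.10 (0.489) without detached replicate 1 and 4.05 (0.999) without detached replicate 2. In the authors' deposited table its log2 fold change was 3.48 (SE 1.02) with an adjusted p of 0.0840.

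miR-6887-3p followed, with 1, 2 and 3 counts across attached libraries and 28 and 18 counts across detached ones. These are 0.0823, 0.227 and 0.291 CPM against 1.77 and 1.71 CPM, and the detached values were close to each other while all attached values were at or below their 3-count level. The detached sum of 46 was 9.11 times the attached sum of 6 per human count (exact 95% counting interval 3.88 to 26.1). miR-6887-3p too passed the filter only through the detached group. The log2 fold change was 2.88 (SE 0.75, edgeR adjusted p 0.300). Without attached replicate 2 it was 3.13 (SE 0.74) and edgeR called it at an adjusted p of 0.0270, in a fit that called 3.24% of all names higher. Under its other alternatives the adjusted p ran from 0.0812 (edgeR without the low-count filter) to 0.999 (edgeR without detached replicate 2). In the authors' deposited table the log2 fold change was 2.21 (SE 1.01, adjusted p 0.881).

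Of the other members with the smallest p in the higher direction, miR-6803-3p and miR-6787-3p are described above. miR-6791-3p, from an intron of GPR108, had 5, 3 and 11 counts across attached libraries and 22 and 21 counts across detached ones, or 0.411, 0.341 and 1.07 CPM against 1.39 and 1.99 CPM. The groups did not overlap, with attached replicate 3 nearest to the detached libraries, and the log2 fold change was 1.26 (SE 0.66, edgeR adjusted p 0.707). Among attached libraries, miR-6791-3p and miR-6803-3p each reached the level of the low-count filter only in replicate 3. Both therefore needed the detached group to pass the filter, and their edgeR p carries that selection.

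In the lower direction the smallest p belonged to miR-6793-5p, with 9, 26 and 10 counts across attached libraries and 4 and 2 counts across detached ones. Attached replicate 2 held more than the other attached libraries together. Its levels were 0.741, 2.95 and 0.969 CPM against 0.253 and 0.190 CPM. This member passed the filter only through the attached group, so its p carries that selection. The log2 fold change was −3.06 (SE 1.03, edgeR adjusted p 0.497), and −2.33 (SE 0.987, adjusted p 0.749) in the authors' deposited table. Without attached replicate 2 this member no longer passed the filter, and without attached replicate 3 it did not either. In each case the remaining attached libraries were still above both detached ones.

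miR-6881-3p, from an intron of the semaphorin gene SEMA7A, showed the same layout, with 9, 27 and 12 counts across attached libraries and 7 and 6 across detached ones. Attached replicate 2 was again highest (3.07 CPM, beside 0.741 and 1.16 CPM in the other attached and 0.443 and 0.570 CPM in the detached libraries). Its log2 fold change was −2.05 (SE 0.92, edgeR adjusted p 0.654), and it too was not tested without attached replicate 2 or without attached replicate 3. Like miR-6793-5p, it passed the filter only through the attached group. miR-6775-3p, from an intron of the amino acid transporter gene SLC7A5, was steadier within groups, at 1.73, 2.16 and 2.23 CPM across attached libraries and 1.14 and 1.23 CPM across detached ones. The log2 fold change was −1.04 (SE 0.63, edgeR adjusted p 0.735). miR-6734-5p, from an intron of the fatty acid elongase gene ELOVL1, had overlapping groups (0.741, 1.48 and 1.07 CPM against 0.823 and 0.665 CPM), and its log2 fold change was −0.80 (SE 0.72, edgeR adjusted p 0.807). This member too passed the filter only through the attached group, and was not tested without attached replicate 2 or without attached replicate 3.

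**Figure D4:**
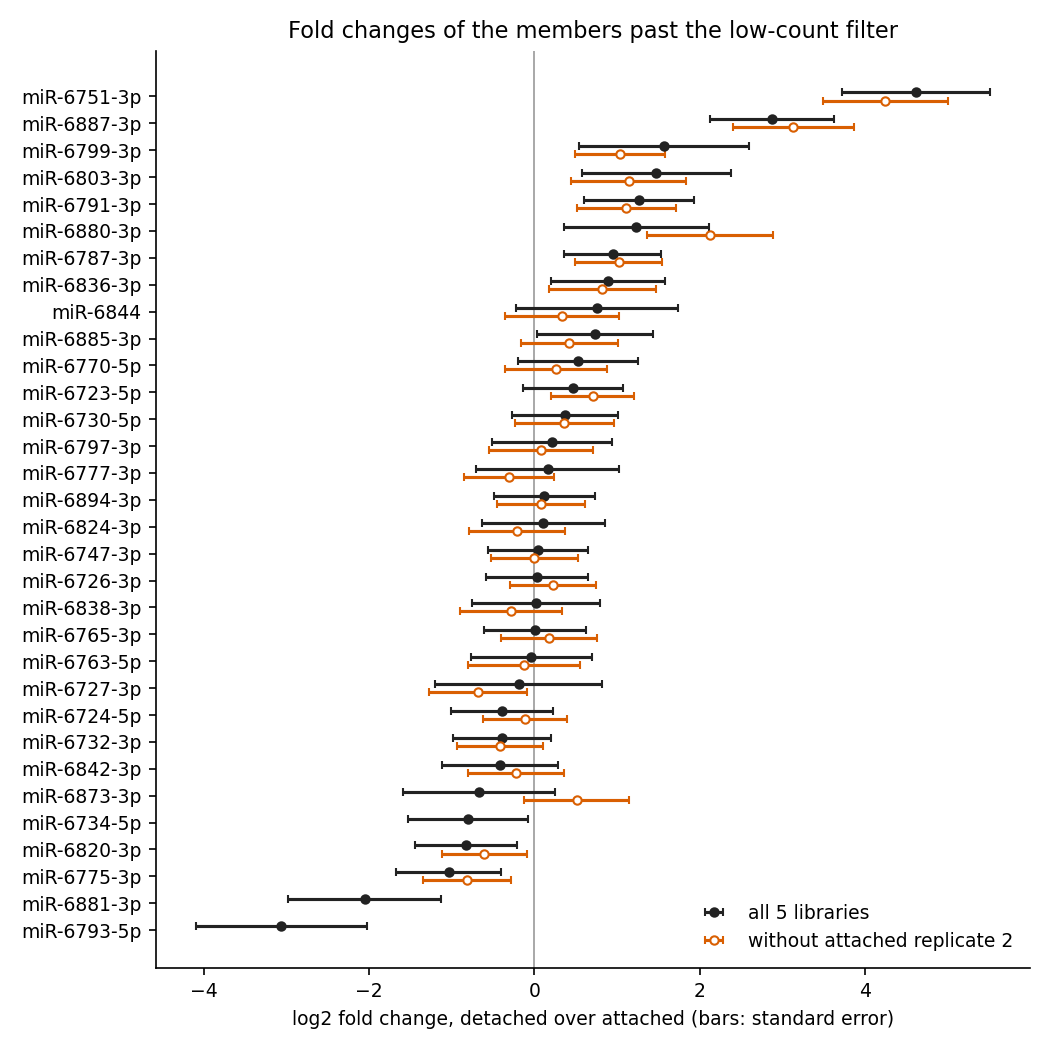
log2 fold change, detached over attached, with its standard error (x axis) for the 32 members past the filter (y axis), from edgeR with all 5 libraries (black) and without attached replicate 2 (orange, where tested). miR-6751-3p and miR-6887-3p stand at 4.62 and 2.88, and miR-6793-5p and miR-6881-3p, at −3.06 and −2.05, have no orange value.

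The order of the libraries was also read for every member, without a filter. In 43 of 210 members (20.5%) both detached libraries were above all attached ones in CPM, where 16.4% of the 1377 human names with 5 or more counts were. In 14 (6.67%) both were below, where 7.63% of all such names were. The higher set held 29 3p and 14 5p members, and the lower set 8 3p and 6 5p members. With TMM scaling the shares were 17.1% and 9.52% of members and 13.9% and 11.8% of all names. The members' shares thus lay near those of all names on both scales. Without attached replicate 2 the shares were 23.3% and 12.9% of members, and 20.4% and 15.6% of all names.

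The arms were not used evenly. Of the 169 3p names in the range, 121 (71.6%) were members, and of the 171 5p names, 87 (50.9%). The remaining 2 members, miR-6844 and miR-6745, have no arm in their names. The 3p members summed to 3884 counts and the 5p members to 2500. In CPM the 3p sum was 49.3, 47.1 and 78.8 across attached libraries and 72.2 and 87.0 across detached ones. The 5p sum was 32.2, 51.3 and 46.5 across attached libraries and 39.6 and 52.4 across detached ones. Attached replicate 2 was the one library in which the 5p sum exceeded the 3p sum, and each arm's groups overlapped.

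Over the 137 hairpins with both arms named and at least 1 member, 92 (67.2%) had more 3p than 5p counts, 44 had more 5p counts and 1 was equal. Of 472 other human hairpins with both arms named and 5 or more counts, 232 (49.2%) had more 3p counts. The exact 95% interval of the 5p share over the pooled libraries, which covers counting error only and not the spread between libraries, lay wholly below an even split in 64 member hairpins and wholly above it in 19. Among the 68 hairpins with both arms as members, 39 had more 3p, 28 more 5p and 1 equal counts.

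The 5p share of the counts on these 137 hairpins was 26.7% (exact 95% interval 23.7 to 29.9), 40.7% (37.0 to 44.4) and 27.0% (24.4 to 29.7) in attached replicates 1 to 3. In detached replicates 1 and 2 it was 22.2% (20.1 to 24.4) and 24.4% (22.0 to 26.9). Both detached shares were below all attached ones, by 2.31 percentage points between the nearest libraries, and attached replicate 2 was farthest from the rest. The pooled share weighs each hairpin by its counts, so a few 3p members with many detached counts can set this order. The intervals cover counting error only, and no test was made of this pooled share. In 259 other hairpins with 5 to 300 counts the 5p share was 43.0%, 51.5% and 46.2% across attached libraries and 46.9% and 50.2% across detached ones. Over all other hairpins, whose counts come mainly from a few abundant miRNAs, it was 72.5% to 82.3%.

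**Figure D5:**
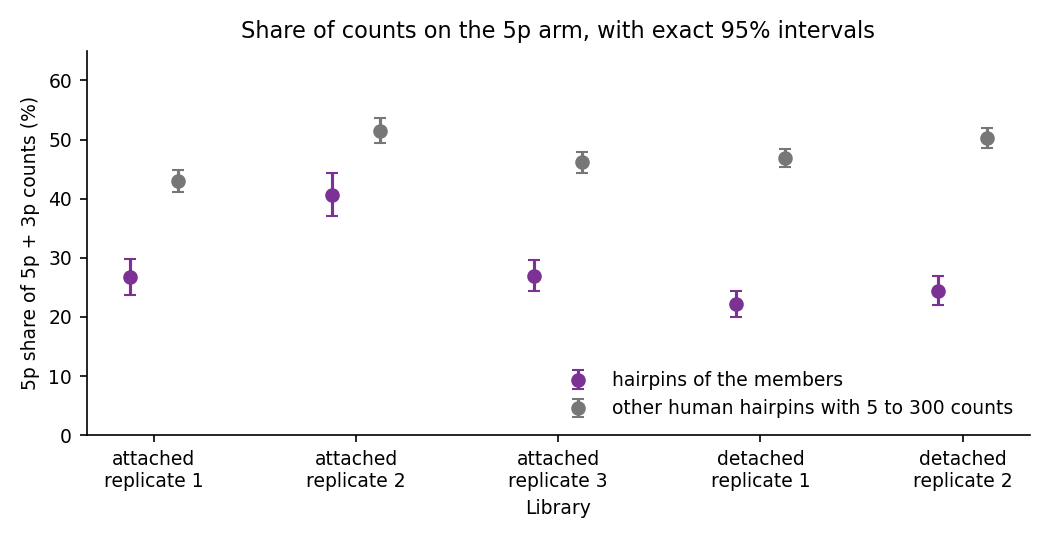
Share of counts on the 5p arm (y axis, %) in each library (x axis) for the 137 member hairpins with both arms named (purple) and 259 other human hairpins with 5 to 300 counts (grey); bars are exact 95% intervals for counting error. The purple points lie below the grey points in every library, and attached replicate 2 has the highest point of each colour.

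Of the 8 hairpins with the most counts among those with both arms as members, all had more 3p than 5p counts. MIR6803, shown above, gave 5 counts of the 5p and 205 of the 3p arm, a 5p share of 2.38% (exact 95% counting interval 0.778 to 5.47). By library it was 25.0%, 16.7% and 2.08% attached and 0% and 2.00% detached, on 8, 6, 48, 98 and 50 counts, and over 4 libraries it was 1.49% without attached replicate 1 and 4.46% without detached replicate 1. For miR-6799 the share was 4.49%, and 1.97% without attached replicate 2, which had 4 counts of the 5p and 0 of the 3p arm. It was 7.66% for miR-6842, 10.0% for miR-6732 (6.17% without attached replicate 3), 11.1% for miR-6787, 13.8% for miR-6775, 15.1% for miR-6894 (in KDM5C, a histone demethylase gene on chromosome X, and 9.90% without attached replicate 2) and 17.4% for miR-6820. In miR-6820 the 5p share was 3.85%, 4.17% and 15.2% across attached libraries and 21.4% and 36.4% across detached ones. The 3p arm of miR-6787 was the larger in every library. Its 5p shares were 12.5%, 25.0% and 23.5% across attached libraries and 2.78% and 8.33% across detached ones, on 16, 12, 17, 36 and 36 counts.

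Other hairpins had more 5p counts. These, and the pair that follows them, were named after their values were seen. miR-6730, in an intron of the retinal reductase gene DHRS3, had a 5p share of 86.7% on 60 counts, and miR-6763 of 78.4% on 51 counts. In miR-6793 and miR-6751 the larger arm was not the same in both groups. For miR-6793 the 5p share was 60.0% over all libraries (exact 95% counting interval 48.8 to 70.5), with 81.8% of 55 attached counts and 20.0% of 30 detached counts. Of the attached 5p counts of miR-6793, 26 came from attached replicate 2, beside 9 and 10 in the other attached libraries. For miR-6751 it was 14.4% over all libraries, with 62.5% of only 8 attached counts and 9.76% of 82 detached counts.

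A change of arm use between groups was tested in edgeR as the difference between the fold changes of the 5p and 3p arms of a hairpin. No member hairpin had both arms past the low-count filter, so none of the 178 hairpins tested was a member, and 0% of them were called. With a minimum of 10 counts per arm, 304 hairpins were tested, 34 of them member hairpins, and 0 were called. At an unadjusted p under 0.05 there were 3 member hairpins among 25 of all hairpins in edgeR. These were miR-6793 (log2 change of 5p over 3p −4.33, adjusted p 0.997), miR-6751 (−4.01, adjusted p 0.997) and miR-6820 (2.24, adjusted p 1.00). No difference in arm use between the groups was called among the 34 member hairpins tested, and the part of depth in this was not tested.

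Mirtrons named earlier, from miR-877 to miR-1238, were read beside the members as other miRNAs of the pathway. Of 21 such names, 11 had 5 or more counts and 7 were tested, of which 6 had a positive and 1 a negative log2 fold change (median 0.49). Over all names tested, 48.8% had a positive value. In edgeR 0 of the 7 were called, and 1, miR-1228-3p, had an unadjusted p under 0.05 (log2 fold change 2.46, SE 0.90, adjusted p 0.560). At that edgeR level 4.73% of all names were higher. miR-1228-3p had 2, 0 and 5 counts across attached libraries and 16 and 20 across detached ones. For miR-1227-3p the counts were 6, 0 and 12 against 33 and 34. Both passed the low-count filter only through the detached group, so their positive values carry that selection. miR-877-5p, which comes from an intron of the ABC-family gene ABCF1, was above every member, with 172, 130 and 308 counts across attached libraries and 290 and 334 across detached ones. Its log2 fold change was 0.11 (SE 0.62, edgeR adjusted p 0.977).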

How the data were processed

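Raw read counts per named small RNA were deposited for each of 5 libraries, and the authors' deposited table gives log2 fold changes with adjusted p-values. The submitters' processing notes name hg38 and DESeq2, and which aligner and counter were used, and how multiply matching reads were handled, is not given in the sources used here. Library size was the total of 2565 human miRNA names. The test was edgeR's two-sided quasi-likelihood F test (version 4.0.16, R 4.3.3) with TMM factors after filterByExpr (minimum count 10, minimum total 15), adjusted by Benjamini-Hochberg over 697 names, and SE was the absolute log2 fold change over the square root of F. Alternatives were DESeq2 1.42.0, limma-voom 3.58.1, other scalings and filters, a replicate block and leaving out each library. TMM-scaled orders, orders without attached replicate 2, the split of intron ends and the 5-to-300-count hairpins were chosen after seeing the data.

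Hairpin positions came from RefSeq (GRCh38.p14), of which 214 were read from its gene table, and introns from GENCODE 29. Named members were the 10 highest by mean CPM, the 5 smallest p in each direction, any called in an alternative, the 8 largest hairpins with both arms as members, and those with 0 counts in a group. Members, rules and lists, the earlier mirtrons included, were chosen with earlier results of these data known. Libraries differed by more than sampling noise, with a chi-square of 617 to 5253 per degree of freedom, and each was kept as its own replicate.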

Additional observations from a re-analysis of the deposited data

How the results depend on the processing

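The number of members called higher, 0 in edgeR, was 1 with DESeq2, 1 without the low-count filter and 0 to 2 when each library was left out, with 2 without attached replicate 2. It was 0 with limma-voom, RLE factors, library totals, all named rows as library size and a 10-CPM filter, under which only 2 members were tested. Of 212 fits of 18 named members under alternatives, 8 changed sign. With RLE factors the log2 fold change was -0.024 for miR-6747-3p and -0.050 for miR-6726-3p, and with all named rows as library size -0.079 and -0.099. When each library was left out it ran from -0.84 to 0.014 for miR-6842-3p, from -0.12 to 0.23 for miR-6747-3p, from -0.21 to 0.22 for miR-6726-3p and from -0.19 to 0.47 for miR-6894-3p. The cause was not tested. Library totals in place of TMM factors moved the median log2 fold change of all names from −0.04 to 0.20. A minimum of 5 counts for detection left 62, 46 and 77 members in attached and 96 and 77 in detached libraries, and a summed count of 20 in the rule left 81 members. Members with both detached libraries below the attached ones numbered 27 without attached replicate 2, where fewer libraries have to be ordered. Without attached replicate 3 the log2 fold change was 2.93 for miR-6803-3p and 2.45 for miR-6799-3p, and without attached replicate 2 that of miR-6799-3p was 1.04, none of them called.

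With the replicate number as a block, 0 members were called, and miR-6751-3p had a log2 fold change of 4.42 (edgeR adjusted p 0.611). At an unadjusted p under 0.05 in that edgeR fit, 4 of 32 members were higher and 1 lower. Over all 697 names tested, 36 were higher and 5 lower. Deviations of same-numbered libraries from their group means had correlations of −0.202 and −0.175 over 697 names. Such deviations cancel within each group, so the 2 correlations are tied to each other. They cannot show whether same-numbered libraries were paired. Depth limits most members: a median of 15 counts over 5 libraries leaves per-library counts in single digits.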
